A study of Mus musculus with 6 samples.

Results

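Flt3, Kit and the colony-stimulating factor receptors are the growth factor receptors through which blood cell precursors and myeloid cells receive survival and growth signals. The genes described here are 7 receptors (Flt3, Kit, Csf1r, Csf2ra, Csf2rb, Csf2rb2 and Csf3r) and 2 ligands (Csf1 and Kitl), chosen by symbol. All 9 were found among the 14912 gene symbols of the deposited table. They were measured by 3' end RNA sequencing in wild-type C57BL/6J bone marrow cultures labelled as dendritic cells. In 3 samples, the midkine group, recombinant human midkine was added at 10 ng/ml for the last 2 days of culture, and 3 control samples had none. Midkine is a secreted growth factor that binds heparin. Both groups were grown with FLT3 ligand, the ligand of Flt3, at 50 ng/ml, renewed on day 7. The labels give no sorting step. Nor do they state that each replicate came from its own mouse or dish; p-values therefore reflect only the spread among these 6 samples, and that spread may be technical.

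Flt3, Kit and Csf1r are receptor tyrosine kinases of the same class, each switched on when its ligand joins a pair of receptors. FLT3 ligand drives dendritic cell development, KIT ligand sustains stem cells, progenitors and mast cells, and CSF1 sustains monocytes and macrophages. The receptors for GM-CSF, interleukin 3 and G-CSF have no kinase of their own and signal through Janus kinases and STAT proteins. Mice carry a beta chain shared by the GM-CSF, interleukin 3 and interleukin 5 receptors (Csf2rb) and a second one used by interleukin 3 alone (Csf2rb2), which pair with ligand-specific alpha chains such as Csf2ra.

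Midkine libraries held 5685055 to 6453768 reads and control libraries 5089338 to 5532055. Values are normalised read counts, that is, reads divided by a size factor per library. Mitochondrial ribosomal RNA took 18.1% to 20.9% of the reads in midkine libraries, against 9.33% to 9.86% in control libraries. The labelled cell type was checked on 14 dendritic cell markers, all of which passed the minimum mean value of 10. Zbtb46, a transcription factor of conventional dendritic cells, was at 565 to 578 with midkine and 785 to 807 in control libraries. Stromal markers were abundant too, summing to 47722 to 50626 with midkine and 16525 to 20124 in control libraries.

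Of the 9 genes, 8 passed the minimum and 1, Csf3r, did not. With midkine, Csf2rb, Csf2rb2 and Csf1 were higher and Kit and Kitl lower (limma adjusted p below 0.05, adjusted over 11844 genes), while Flt3, Csf1r and Csf2ra were not called. Calls were frequent over all genes tested: 42.7% were called, 20.9% higher and 21.8% lower, at a median log2 fold change of -0.01. The 5 calls among 8 genes stand beside that background. After scaling to total counts 8 of the 8 were called, against 51.4% of all genes (10.8% higher, 40.6% lower). With ribosomal RNA left out of those totals 6 were called, against 43.9% (17.0% higher, 26.8% lower). The sizes of the changes differed widely, with log2 fold changes between -2.33 and 1.44. The groups did not overlap for 8 of the 9 genes, the untested Csf3r included, and for 51.3% of all genes tested. Among the 8 genes tested only the Csf1r groups overlapped.

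**Figure D1:**
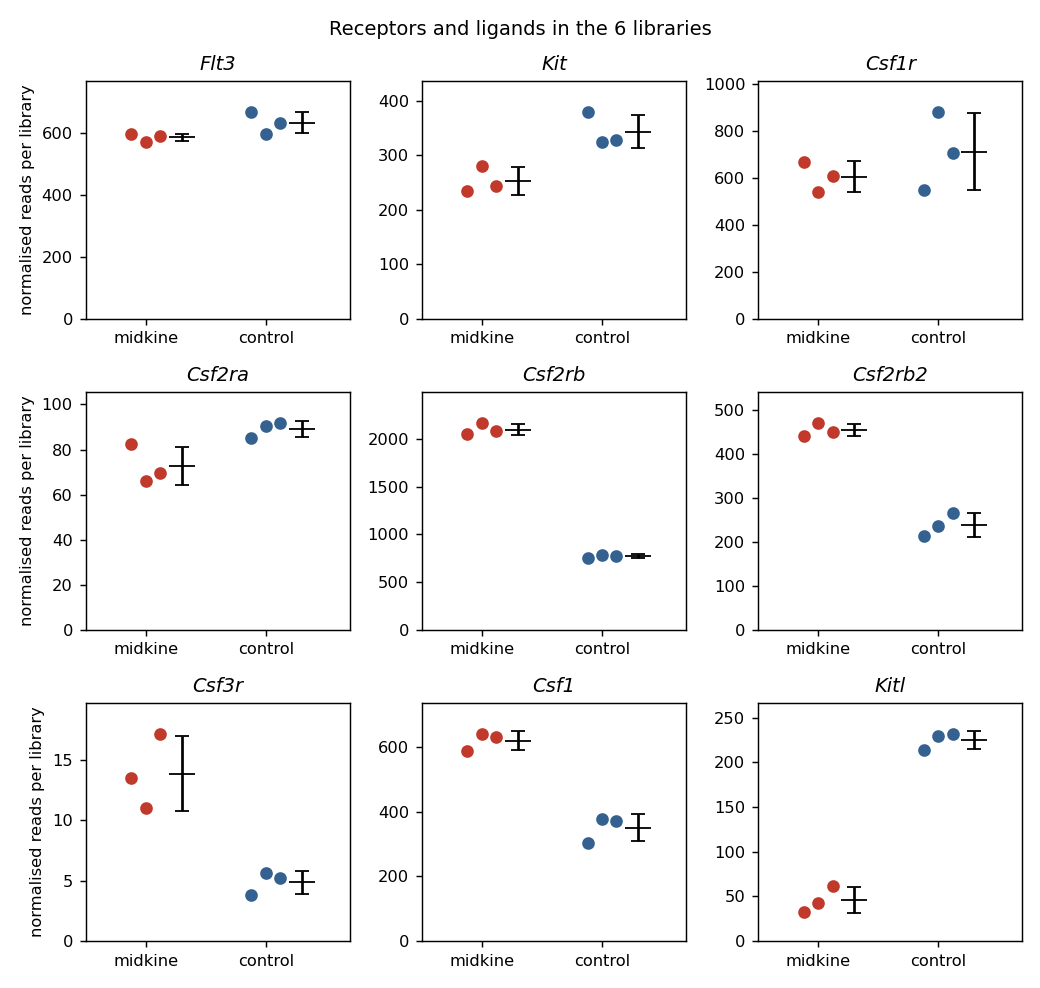
Normalised read counts of the 9 genes in each library (vertical axis, from 0), with midkine libraries in red and control libraries in blue, and the mean with its SD beside each group (n = 3). Csf2rb, Csf2rb2, Csf3r and Csf1 lie higher in all midkine libraries and Kit and Kitl lower. Flt3 and Csf2ra lie lower by a narrow gap, while the Csf1r groups overlap.

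Among the 8 genes tested Csf2rb rose furthest; it encodes the shared beta chain. Its values were 2047, 2165 and 2080 in midkine libraries, against 749, 786 and 776 in control libraries. The lowest midkine value was thus far above the highest control value. The means were 2098 ± 60.9 with midkine and 770 ± 19.03 in control cultures (SD, n = 3 each), a 2.72-fold rise (log2 fold change 1.44, SE 0.075, limma adjusted p = 4.2e-14). Among all genes tested, 2.52% had a log2 fold change at least as high. Csf2rb lies on chromosome 15 from 78325752 to 78353847 of GRCm38, on the plus strand.

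Csf2rb2, the beta chain of the interleukin 3 receptor, also rose, by less. It was at 442, 470 and 451 with midkine, against 213, 235 and 267 in control libraries. All midkine values lay above all control values. The log2 fold change was 0.93 (SE 0.10, limma adjusted p = 3.1e-08), and the means were 1.91-fold apart. Csf2rb2 lies beside Csf2rb, from 78282507 to 78305721 on the minus strand, with 20030 bases and no annotated gene between them.

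The 2 beta chain genes are close copies, so their sequences are shown to compare them where reads could be misassigned. Their coding sequences in GENCODE vM21, of 2691 bases in Csf2rb and 2637 bases in Csf2rb2, were identical at 95.2% of 2631 aligned bases. The first 90 coding bases and the 90 that end at the stop codon of Csf2rb2 follow, 5' to 3' on the coding strand, with the bases that differ in capitals.
Csf2rb, coding bases 1 to 90: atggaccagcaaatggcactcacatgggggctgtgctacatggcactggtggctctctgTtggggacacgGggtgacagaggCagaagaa
Csf2rb2, coding bases 1 to 90: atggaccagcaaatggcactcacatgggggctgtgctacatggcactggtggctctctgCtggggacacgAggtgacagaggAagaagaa
Csf2rb, coding bases 2548 to 2637: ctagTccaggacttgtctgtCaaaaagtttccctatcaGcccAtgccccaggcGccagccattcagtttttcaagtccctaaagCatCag
Csf2rb2, coding bases 2548 to 2637: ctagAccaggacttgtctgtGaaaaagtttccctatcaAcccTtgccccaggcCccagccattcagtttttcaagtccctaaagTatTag

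The first stretch differed at 3 bases and the last at 7. The 3' ends, from which this kit reads, were less alike. In the last 500 bases of the annotated transcripts Csf2rb-201 and Csf2rb2-201, 12 of 476 windows of 25 bases (2.52%) and 0 of 451 windows of 50 bases occurred in the other gene. Over the whole Csf2rb transcript 33.8% of the windows of 25 bases did. The sources used here do not say how reads that matched both genes were counted. The sum of both genes was 2489, 2636 and 2531 with midkine, against 962, 1021 and 1043 in control libraries.

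Within each library the share of the 2 beta chains also differed between groups. The value of Csf2rb2 was 0.216, 0.217 and 0.217 of that of Csf2rb in midkine libraries, against 0.285, 0.299 and 0.344 in control libraries. The midkine ratios were all lower, by 0.51 on the log2 scale (exact two-sided permutation test, p = 0.10, the smallest that 3 against 3 samples allow; 0.12 adjusted over 6 ratios). Such ratios compare reads and do not depend on how libraries were scaled to one another.

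Csf2ra (chromosome 19, 61223957 to 61228429, minus strand), the alpha chain that gives the GM-CSF receptor its ligand specificity, did not rise with its beta chain. Its values were 82.3, 66.0 and 69.6 with midkine and 85.0, 90.5 and 91.7 in control libraries. The groups did not overlap, yet the highest midkine value lay close to the lowest control value. The log2 fold change was -0.30 (SE 0.15, 95% interval -0.61 to 0.02, limma adjusted p = 0.121), which rests on 69 to 97 reads per library. It was called at -0.55 (adjusted p = 0.0048) with scaling to total counts, which shifted the median of all genes to -0.27, and at -0.37 (adjusted p = 0.0485) when ribosomal RNA was left out of the totals. The ratio of Csf2ra to Csf2rb was 0.0402, 0.0305 and 0.0335 with midkine, against 0.113, 0.115 and 0.118 in control libraries (log2 difference -1.75, exact permutation p = 0.10, 0.12 adjusted over 6 ratios).

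The alpha chains of the other receptors that use these beta chains were measured as well. Il3ra, the interleukin 3 alpha chain, had values of 47.3, 40.3 and 61.5 with midkine and 37.8, 40.1 and 44.8 in control libraries. These groups overlapped (log2 fold change 0.26, limma adjusted p = 0.323). Il5ra, the interleukin 5 alpha chain, was below the minimum, with a mean of 1.28 ± 1.12 with midkine and 1.88 ± 1.63 in control cultures (SD, n = 3 each).

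Csf3r (chromosome 4, 126024550 to 126044440, plus strand), the G-CSF receptor gene of the neutrophil lineage and some monocytes, was the scarcest of the 9. It was at 13.5, 11.0 and 17.2 with midkine, against 3.78, 5.60 and 5.21 in control libraries. All midkine values were higher, but they rest on 12, 12 and 17 reads, and the control values on 4, 6 and 5 reads. Its mean of 9.38 lay just under the minimum of 10, so Csf3r was not tested in the main comparison. With a minimum of 1 it was called, at 1.34 on the log2 scale (limma adjusted p = 0.0088). With that minimum 17.3% of 14800 genes were called higher. The ratio of Csf3r to Csf1r was higher by 1.72 on the log2 scale (exact permutation p = 0.10, 0.12 adjusted over 6 ratios).

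Neutrophil markers, in sum, went in the other direction from Csf3r. The list of 18 summed to 124 to 142 with midkine, against 587 to 740 in control libraries. Most of the control sum came from S100a8 and S100a9 (control means 292 and 215), so it says little of the other markers. Of the 6 that passed the minimum, S100a8, S100a9 and Ngp fell, Mmp8 rose, and Mpo and Mmp9 were not called. S100a8, a calcium-binding protein gene of neutrophils and monocytes, averaged 18.9 ± 6.19 with midkine and 292 ± 35.02 in control cultures (log2 fold change -3.93, limma adjusted p = 2.0e-14). Among defining markers, 2 were named after their values were seen. Ly6g was at 0 in all midkine libraries and at 0 in 2 of 3 control libraries, and Cebpe was at 0 in 2 midkine and all control libraries. Others below the minimum, among them Ltf, Camp, Prtn3 and Chil3, had reads in all control libraries. The part of the neutrophil lineage in the Csf3r values was not tested.

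Flt3 was not called. The gene lies on chromosome 5 from 147330741 to 147400489, minus strand. Its values were 596, 572 and 591 with midkine, against 669, 599 and 635 in control libraries. The midkine values lay just below the control values without overlapping them. The means were 586 ± 12.8 with midkine and 634 ± 34.9 in control cultures (SD, n = 3 each), and the log2 fold change was -0.11 (SE 0.08, 95% interval -0.28 to 0.06, limma adjusted p = 0.298). The interval bounds a fall on this scale at 0.28, and it does not show that the levels were equal. Scaling to total counts gave a call at -0.37 (adjusted p = 0.0011), or -0.10 relative to the median of all genes. In bulk cultures, a change in the number of cells that carry a transcript and a change of it per cell cannot be told apart. This holds for Flt3 and for every gene above and below, Csf2rb included.

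Markers of dendritic cells, which carry Flt3, were mostly lower. Of 14 dendritic cell markers 9 fell and 2 rose, at a median log2 fold change of -0.60, beside -0.01 over all genes. Of all genes tested 21.8% were called lower and 20.9% higher. Ccr9 and Siglech, both of plasmacytoid dendritic cells, had log2 fold changes of -4.77 and -3.002. Tcf4 (-1.56) and Bcl11a (-1.43), transcription factors of the same lineage, fell too. The 2 dendritic cell markers that rose, named after their values were seen, were Itgax (0.83), which encodes CD11c, and Sirpa (0.26). The part of these cells in the Flt3 values was not tested.

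Kit, the KIT ligand receptor gene (chromosome 5, 75574916 to 75656722, plus strand), fell. It was at 234, 281 and 243 with midkine, against 380, 324 and 328 in control libraries. Every midkine value was below every control value. The means were 253 ± 24.97 with midkine and 344 ± 31.1 in control cultures (SD, n = 3 each), and the log2 fold change was -0.44 (SE 0.10, limma adjusted p = 0.0013). Relative to Flt3 in the same library, Kit stood at 0.393, 0.492 and 0.411 with midkine, against 0.568, 0.541 and 0.517 in control libraries (log2 difference -0.33, exact permutation p = 0.10, 0.12 adjusted over 6 ratios).

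Markers of progenitors and mast cells, the other cells known to carry Kit, went both ways. Those of mast cells were mostly below the minimum or without a row. Of 10 progenitor markers that passed the minimum, 4 fell and 2 rose, at a median of -0.32, beside 21.8% lower and 20.9% higher over all genes. Dntt, an enzyme gene of early lymphoid cells, had a log2 fold change of -3.13 and Myb, a progenitor transcription factor gene, of -2.71. Ptprcap (-1.98) and the stem cell antigen gene Ly6a (-0.50) fell too. Ly6a was at -0.29 without control replicate 1, and its call was lost when limma was run without a variance trend. Hoxa9 (0.72) and the surface marker Cd34 (0.76), named after their values were seen, rose. After total-count scaling none of the progenitor markers was higher and 5 were lower, beside 10.8% higher and 40.6% lower over all genes. The median of these markers relative to that of all genes stayed at -0.31. Of 13 mast cell and basophil markers, Il1rl1 (-2.14) fell, Mitf (0.75) rose, 6 were below the minimum and 5 had no row in the table. The protease gene Cpa3, a defining marker, was at 0 in all midkine libraries and at 0 in 2 of 3 control libraries. The part of these cells in the Kit values was not tested.

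Csf1r, the CSF1 receptor gene and a mark of monocytes and macrophages, overlapped between the groups. Its values were 667, 538 and 608 with midkine, against 548, 879 and 706 in control libraries. The control values spread widely and enclosed all but the lowest of the midkine values. The log2 fold change was -0.21 (SE 0.12, 95% interval -0.46 to 0.03, limma adjusted p = 0.154). This value depended on which library was left out. Without control replicate 1 it was -0.39 and called (adjusted p = 0.0039), and without control replicate 2 it was -0.046 (adjusted p = 0.791). Without midkine replicate 2 it was -0.13 (adjusted p = 0.411). Scaling to total counts gave a call at -0.47 (adjusted p = 0.0029). Its exons overlap those of Hmgxb3 on the other strand, and the sources used here do not state the strand setting of the counting.

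Macrophage and monocyte markers went both ways beside Csf1r. Of 20, all above the minimum, 8 rose and 6 fell, at a median of 0.13, with summed values of 24758 to 27194 with midkine and 15365 to 18246 in control libraries. Over all genes tested 20.9% were called higher and 21.8% lower. After total-count scaling the split of the list was 5 higher against 9 lower, beside 10.8% higher and 40.6% lower over all genes. The list median was then -0.13. That scaling moved the median of all genes to -0.27, and relative to it the list median stayed at 0.14. Gpnmb, a lysosomal gene of lipid-laden macrophages, rose 6.60-fold, with means of 9144 with midkine and 1385 in control cultures. This 1 gene made up much of the gap between the summed values, which therefore say little of the other markers. Mrc1, the mannose receptor gene, fell (log2 fold change -1.27), as did Ly6c2 of inflammatory monocytes (-4.28). The part of these cells in the Csf1r values was not tested.

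Csf1, which encodes a ligand of Csf1r (chromosome 3, 107741048 to 107760469, minus strand), rose. It was at 586, 639 and 632 with midkine, against 301, 377 and 371 in control libraries. The groups lay well apart. The means were 619 ± 28.6 with midkine and 350 ± 42.1 in control cultures (SD, n = 3 each), and the log2 fold change was 0.83 (SE 0.10, limma adjusted p = 1.2e-07). The value of Csf1 was 0.878, 1.19 and 1.04 of that of Csf1r with midkine, against 0.550, 0.429 and 0.526 in control libraries (log2 difference 1.04, exact permutation p = 0.10, 0.12 adjusted over 6 ratios). Il34, the other ligand of Csf1r, was at 32.7, 39.4 and 32.3 with midkine and 28.3, 40.1 and 33.4 in control libraries, with overlapping groups (log2 fold change 0.04, limma adjusted p = 0.898).

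Kitl, which encodes KIT ligand, fell furthest of the 9 genes. Its values were 32.7, 42.2 and 61.5 with midkine, against 213, 230 and 231 in control libraries. The highest midkine value was far below the lowest control value. The means were 45.5 ± 14.7 with midkine and 225 ± 9.85 in control cultures (SD, n = 3 each), a 4.94-fold fall (log2 fold change -2.33, SE 0.17, limma adjusted p = 3.7e-11). Among all genes tested 0.414% had a log2 fold change at least as low. Kitl lies on chromosome 10 from 100015630 to 100100416, plus strand. Kit and its ligand were both lower with midkine, whereas Csf1 was higher and Csf1r was not called.

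**Figure D2:**
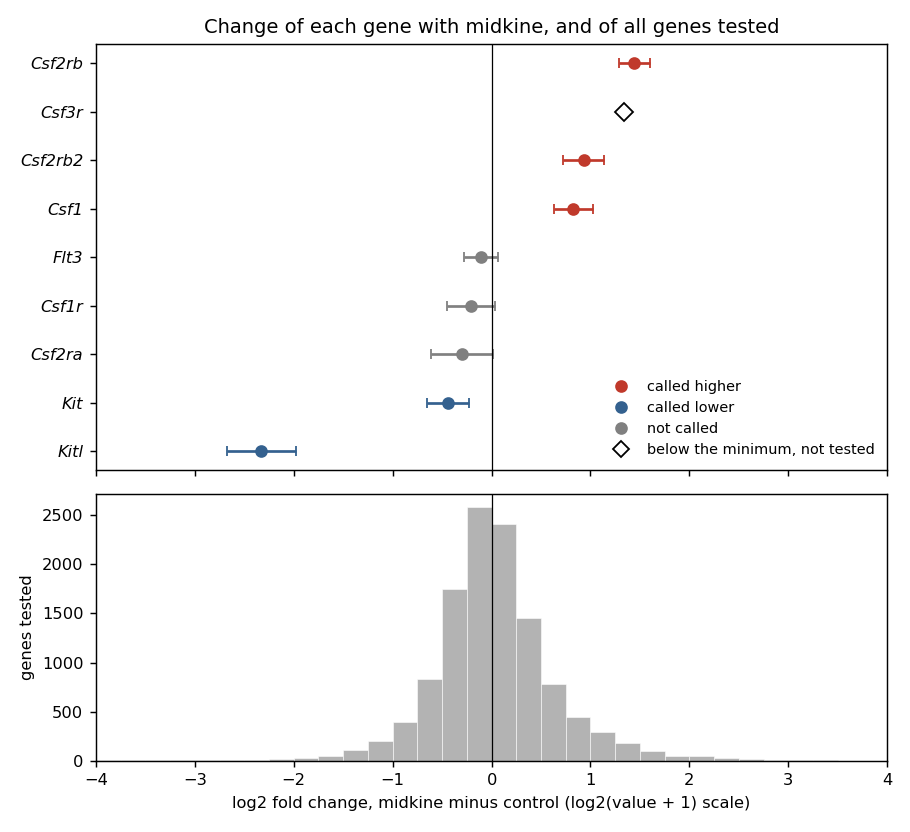
Log2 fold change of each gene with its 95% interval from the limma fit (upper plot), above the histogram of the 11844 genes tested on the same horizontal axis. Csf2rb (1.44) and Kitl (-2.33) lie in the tails of the histogram; Csf3r is drawn without an interval because it was below the minimum.

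KIT ligand and CSF1 are both made by stromal cells, whose markers were higher with midkine. Of 12 stromal markers that passed the minimum 8 rose and 1 fell, at a median of 1.03, beside 20.9% higher and 21.8% lower over all genes. Postn, a matrix protein gene, rose 5.10-fold, Acta2 4.30-fold and Col1a1 3.21-fold. The marker that fell was the chemokine gene Cxcl12 (log2 fold change -0.68), named after its value was seen, at 842, 909 and 819 with midkine, against 1268, 1472 and 1389 in control libraries. Kitl and Cxcl12 were lower, and Csf1 higher, in the libraries with the larger stromal marker sums. The part of stromal cells in the Kitl and Csf1 values was not tested.

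The other ligands and receptors of this group were scarce. Csf2, Csf3, Il3 and Il5 were not analysed here, since the table held no row for them. Flt3l, the mouse gene of FLT3 ligand, was at 83.4, 87.1 and 77.7 with midkine and 83.1, 75.6 and 42.7 in control libraries, with overlapping groups (log2 fold change 0.35, limma adjusted p = 0.150). The Flt3l value also depended on which library was left out. It was 0.06 without control replicate 3 (adjusted p = 0.822). Without control replicate 1 it was 0.53 and called (adjusted p = 0.0399). Pdgfrb, a related receptor kinase of stromal cells, rose, at 66.2 ± 20.5 with midkine and 42.2 ± 6.38 in control cultures (SD, n = 3 each; log2 fold change 0.61, limma adjusted p = 0.0202). That call was lost without midkine replicate 2 (0.37, adjusted p = 0.195) without control replicate 1 (0.48), with scaling to total counts (0.35), and without a variance trend. Pdgfra, the sister receptor, was at 39.4, 26.6 and 33.3 with midkine and 26.4, 35.5 and 14.6 in control libraries, with overlapping groups (log2 fold change 0.43, adjusted p = 0.224). That value was 0.09 without control replicate 3 and 0.70 without control replicate 2.

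**Figure D3:**
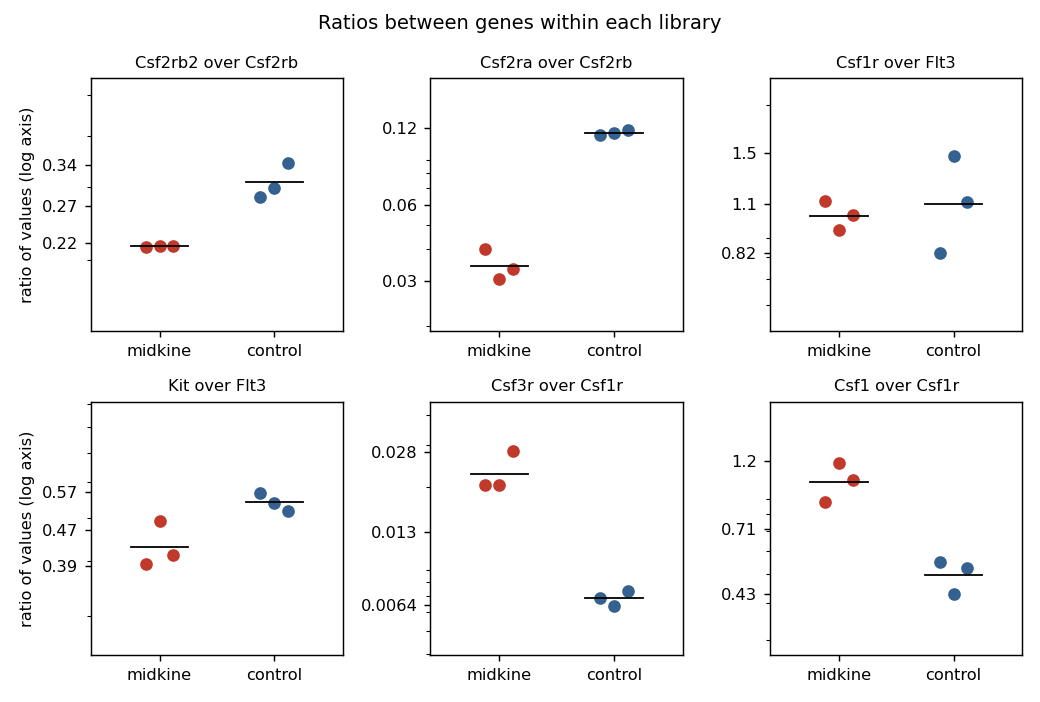
Ratio of the values of 2 genes within each library (vertical axis, log scale), with midkine libraries in red, control libraries in blue and the geometric mean as a line (n = 3). The groups are apart for 5 of the 6 ratios and overlap for Csf1r over Flt3.

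Upstream sequence is shown for the genes with the largest tested fall and rise among those with a RefSeq entry. RefSeq starts of GRCm38.p6 were found for 7 of the 9 genes, all but Csf1r and Csf2rb. The 100 bases before the RefSeq start of Kitl (chr10:100015721-100015820, plus strand) and of Csf2rb2 (chr15:78305722-78305821, minus strand) follow, 5' to 3' on the gene's strand. GENCODE vM21 starts Kitl earlier, at 100015630, so the Kitl bases shown lie inside the gene as annotated there. Capitals mark a TATAAA match in Kitl and a match to the STAT motif TTCNNNGAA in Csf2rb2.
Kitl: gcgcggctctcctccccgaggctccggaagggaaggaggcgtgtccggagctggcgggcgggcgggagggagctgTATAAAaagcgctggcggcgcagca
Csf2rb2: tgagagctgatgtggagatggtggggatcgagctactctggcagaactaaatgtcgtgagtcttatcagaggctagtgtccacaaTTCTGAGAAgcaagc

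Both motifs were searched on both strands in windows of 250 bases before to 50 after 32851 RefSeq starts. TATAAA occurred in 13.6% of them and in Kitl among the 7 genes, 20 to 25 bases before its RefSeq start. TTCNNNGAA occurred in 8.30% and in Csf2rb2 among the 7, 7 to 15 bases before its start. GAGGAAGT, the core bound by PU.1, occurred in 3.20% of the windows and among the 7 genes in Csf2rb2. GGGCGG, the GC box, occurred in 35.7% and in 4 of the 7, Csf1, Kit, Kitl and Csf2ra. CACGTG occurred in 7.15% and in Flt3, while TGANTCA (7.81%) and TGTGGT (16.8%) had no match in these 7 windows. A match describes letters and not binding.

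Signalling genes downstream of the receptors stand beside 42.7% of all genes called, 20.9% higher and 21.8% lower. Of 25, 5 fell, 2 rose and 18 were not called, at a median of 0.00. Gab2, an adaptor that docks signalling proteins on activated receptors, rose (507 ± 16.4 with midkine and 319 ± 12.8 in control cultures, SD, n = 3 each; log2 fold change 0.67, limma adjusted p = 1.2e-06). Mapk3, which encodes the kinase ERK1, rose by 0.68. Lyn (-0.53), a Src family kinase, and Pik3cg (-0.65), a phosphoinositide kinase subunit, fell. After total-count scaling the split was 2 higher against 14 lower, beside 10.8% higher and 40.6% lower over all genes. The list median relative to that of all genes stayed at 0.01. Jak2, the kinase bound to the beta chains, was at 725, 652 and 695 with midkine, against 725, 578 and 623 in control libraries (log2 fold change 0.11, limma adjusted p = 0.346); Jak2 and the genes of the next sentence were named for their role after values were seen. Stat5a (-0.13) and Stat5b (0.28), the transcription factors that Jak2 activates, were not called.

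**Figure D4:**
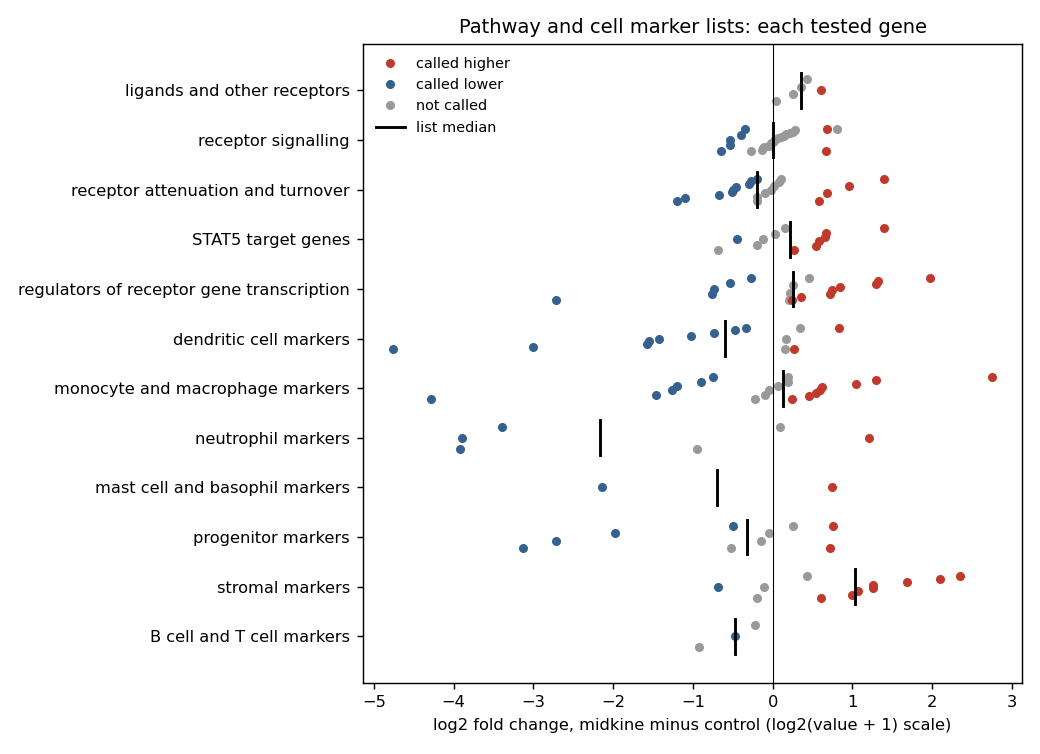
Log2 fold change of each tested gene (horizontal axis) in 5 pathway lists and 7 cell marker lists, coloured by call, with the list median as a bar. Stromal markers lie mostly above 0 and dendritic cell markers mostly below, while signalling genes centre on 0.00.

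Genes that attenuate these receptors moved in both directions. Of 20 that passed the minimum 9 fell and 4 rose, at a median of -0.19, beside 21.8% lower and 20.9% higher over all genes. Socs3, a feedback inhibitor of cytokine and G-CSF receptors, rose 2.70-fold, at 111 ± 18.99 with midkine and 41.0 ± 4.65 in control cultures (SD, n = 3 each; limma adjusted p = 3.1e-07). Inppl1, a phosphoinositide phosphatase gene, rose by 0.96 on the log2 scale. Dok2 (-1.20) and Sh2b3 (-0.68), which encode adaptors that restrain myeloid cytokine and KIT signalling, fell.

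Target genes of STAT5, a transcription factor used by the GM-CSF and interleukin 3 receptors, were more often higher. Of 12 that passed the minimum 6 rose and 1 fell (Myc, by 0.45), at a median of 0.21. Over all genes tested 20.9% were called higher and 21.8% lower. The call of Myc was lost without midkine replicate 1 or 2, without any 1 of the control replicates, and by DESeq2. After total-count scaling the split of the list was 5 higher against 3 lower, beside 10.8% higher and 40.6% lower over all genes. The list median was then -0.05. Relative to the median of all genes, which that scaling moved to -0.27, the list median stayed at 0.22. The kinase gene Pim1 rose by 0.67, the cyclin gene Ccnd2 by 0.55 and the survival gene Bcl2l1 by 0.66. Socs3 and Socs2 are in this list and in the attenuation list, so the counts of these lists share genes.

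Regulators of receptor gene transcription also split, with 8 higher and 5 lower of 17, at a median of 0.25. Over all genes tested 20.9% were called higher and 21.8% lower. After total-count scaling the split of the list was 5 against 5, beside 10.8% higher and 40.6% lower over all genes. The list median was then 0.27 relative to that of all genes, against 0.26 before. Cebpb, a transcription factor of myeloid differentiation, rose 3.98-fold, at 234 ± 10.6 with midkine and 58.8 ± 3.28 in control cultures (SD, n = 3 each; limma adjusted p = 3.9e-12). Egr1, an early response transcription factor gene, rose 2.51-fold. Myb, which activates Kit in progenitors, was at 15.8 ± 4.94 with midkine and 106 ± 1.50 in control cultures. Spi1, which encodes PU.1, an activator of Csf1r and Csf3r, fell by 0.28; it was chosen after its value was seen. Gfi1 was listed at 0 in all 6 libraries.

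Likeness was measured as Pearson's r of log2(value + 1) over the 6 libraries, among 8159 tested genes with a mean of at least 50. Csf2rb was most like Mast4, Actn4 and Edn1 (lowest r of the 3 genes 0.9995), and Csf2rb2 like Ltbp2, Fxyd5 and Gpi1 (lowest r 0.999). Kitl was most like Pan3, Aacs and Tyms (lowest r 0.996). These members have separate groups, and r of at least 0.95 was reached by 802 genes for Csf2rb, 697 for Csf2rb2, 662 for Csf1 and 433 for Kitl. Kit was most like Sptlc1, Sf1 and Utp15 (lowest r 0.9939), Flt3 like Maip1, AW112010 and Mak16 (lowest r 0.9917), and Csf2ra like Pelp1, Ndufb10 and Arl4a (lowest r 0.989). For Csf1r, whose groups overlapped, 11 genes reached 0.95, led by Lap3, Diaph2 and Srm (lowest r 0.971). With 6 libraries that share the split by treatment, these values are descriptions only.

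B cell and T cell markers were scarce, with 3 of 10 measured above the minimum. Ebf1, a B cell transcription factor, fell by 0.47 on the log2 scale (limma adjusted p = 0.0144). That call was lost without midkine replicate 3, control replicate 2 or control replicate 3, at -0.39, -0.35 and -0.44, and without a variance trend. Summed values of the list were 135 to 187 with midkine and 151 to 234 in control libraries.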

How the data were processed

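The authors deposited a signal table of read counts per gene symbol divided by a size factor per library. Builds GRCm38 and mm10 and the tools HTSeq, DESeq2, SAMtools 0.1.19, TopHat2 2.0.10, FastQC 0.11.0 and Bowtie 1.0.0 are listed in the submitters' processing notes. The sources used here state neither the annotation nor the strand setting. Libraries were made from 500 ng of RNA with a forward 3' end kit, per the labels' protocols. Division by what 1 read is worth in a column returned whole reads (100% of values within 1e-06 reads).

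Genes with a mean value of at least 10 were tested with limma 3.58.1 (R 4.3.3; lmFit, eBayes with trend) on log2(value + 1), which understates changes of low genes, and calls made at a Benjamini-Hochberg adjusted p below 0.05. The members and lists were chosen with earlier results of these data known. Named list genes are up to 4 called genes per list with the smallest p, and all measured ligands and other receptors. Likeness took the 3 genes with the highest r, predicted genes left out. Some genes that these rules name are not reported here. Alternatives were pseudocounts, filters, scalings, a replicate block, edgeR 4.0.16, DESeq2 1.42.0 and left-out libraries. In simulated data for midkine against control (11726 genes) the fit called 42 of 67 genes given a 1.5-fold change. At 2-fold it called 57 of 67 and at 4-fold 63 of 66, and 7 other genes were called. The simulation changed a far smaller share of genes than the 42.7% called in the data, so these rates need not hold there. Positions and coding sequences are from GENCODE vM21, in which 99.6% of 14912 symbols were found. Coding sequences were aligned with Biopython 1.88.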

Additional observations from a re-analysis of the deposited data

How the results depend on the processing

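Csf2rb, Csf2rb2, Csf1, Kit and Kitl kept their direction and their call under every alternative run. The count of called genes among the 9 was 5, with 3 higher and 2 lower. It was 8 with scaling to total counts (3 higher and 5 lower), where 6100 genes were called in all, 1277 of them higher and 4823 lower, against 2481 and 2578. Under that scaling Flt3 (-0.37), Csf1r (-0.47) and Csf2ra (-0.55) became called, and Kit was at -0.70, against -0.44. Csf2ra was also called, at -0.37, with ribosomal RNA left out of the totals. Scaling to total counts moved the median of all genes to -0.27, against -0.01. Csf3r could be tested, and was called at 1.34, with a minimum of 1 and with no filter. Leaving out each library gave 5 to 7 calls and log2 fold changes of -0.39 to -0.046 for Csf1r. Csf3r was among those calls, at 1.20 to 1.43, in the 3 fits that left out a control library; it passed the minimum there because a library of the lower group was gone, so these values are no check of it. The ratio of Csf1r to Flt3 had a log2 difference of -0.31 to 0.11 with each library left out. Same-numbered samples did not deviate together (correlations of -0.06 to 0.03). These correlations cannot show whether same-numbered samples were prepared together. A replicate block, which cannot move a fold change in this balanced design, gave 5 calls among the 9 and 5160 in all. Among the lists, the signalling genes called went to 16 with scaling to total counts, against 7, and neutrophil markers to 8 with a minimum of 1, against 4. Csf3r, with 4 to 17 reads, is limited by depth.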
